A study of Mus musculus with 2 samples.

Results

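The genes of the proteasome were described in the left cerebral cortex of the mouse, as the 44 of 55536 annotated genes whose symbols name an alpha (Psma), beta (Psmb), ATPase (Psmc), non-ATPase cap (Psmd) or activator (Psme) subunit, together with the inhibitor gene Psmf1. Total RNA was sequenced from 2 female mice, each with 1 library and both in 1 group. The animals were B6CASTF1/J hybrids, the offspring of a C57BL/6J by CAST/EiJ cross, aged 36 days and with no treatment in the labels. Each library was made from 300 ng of RNA with ribosomal RNA reduced, was stranded, and carried ERCC synthetic RNA spike-ins. The tissue was whole cortex. The labels number the animals separately and give both 1 donor record, read here as that of the strain.

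The proteasome is the barrel-shaped protease that degrades proteins tagged with ubiquitin. Its 20S core has outer rings of alpha subunits and inner rings of beta subunits, of which beta 1, beta 2 and beta 5 cut peptide bonds, and a 19S cap recognises, unfolds and feeds in the substrate. Interferon and immune cells replace the cutting subunits with the immunoproteasome forms Psmb9, Psmb10 and Psmb8, while the activators encoded by Psme1 to Psme4 can bind the core in place of the cap.

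The 2 libraries held 29417200 and 35188800 expected counts in replicates 1 and 2, of which 53241 and 66483 fell on proteasome genes, or 0.182% and 0.190% of the counts on annotated genes. Levels are given in TPM, the share of a library's transcripts that a gene takes after correction for length. Means are given with an SD over the 2 mice (n = 2), and the series allows no test of a condition. Neuron markers had a median of 424 ± 49.4 TPM, astrocyte markers 46.3 ± 8.23 TPM, oligodendrocyte markers 237 ± 63.0 TPM and microglia markers 18.1 ± 0.626 TPM. None of the 6 blood leukocyte markers reached 1 TPM in both mice. In whole tissue, fewer cells of a type and less RNA per cell cannot be told apart.

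Of the 44 proteasome genes, 40 (90.9%) had at least 1 TPM in both mice, against 57.9% of 22015 nuclear protein-coding genes. The exceptions were the immunoproteasome genes Psmb8 and Psmb9 and the tissue-restricted genes Psma8 and Psmb11. In both mice 38 of the 44 lay above the median of the expressed protein-coding genes, which was 15.3 ± 1.60 TPM over 12754 genes. The share of all nuclear protein-coding genes above that median in both mice was not counted. Proteasome genes summed to 2139 TPM in replicate 1 and 1958 TPM in replicate 2.

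**Figure D1:**
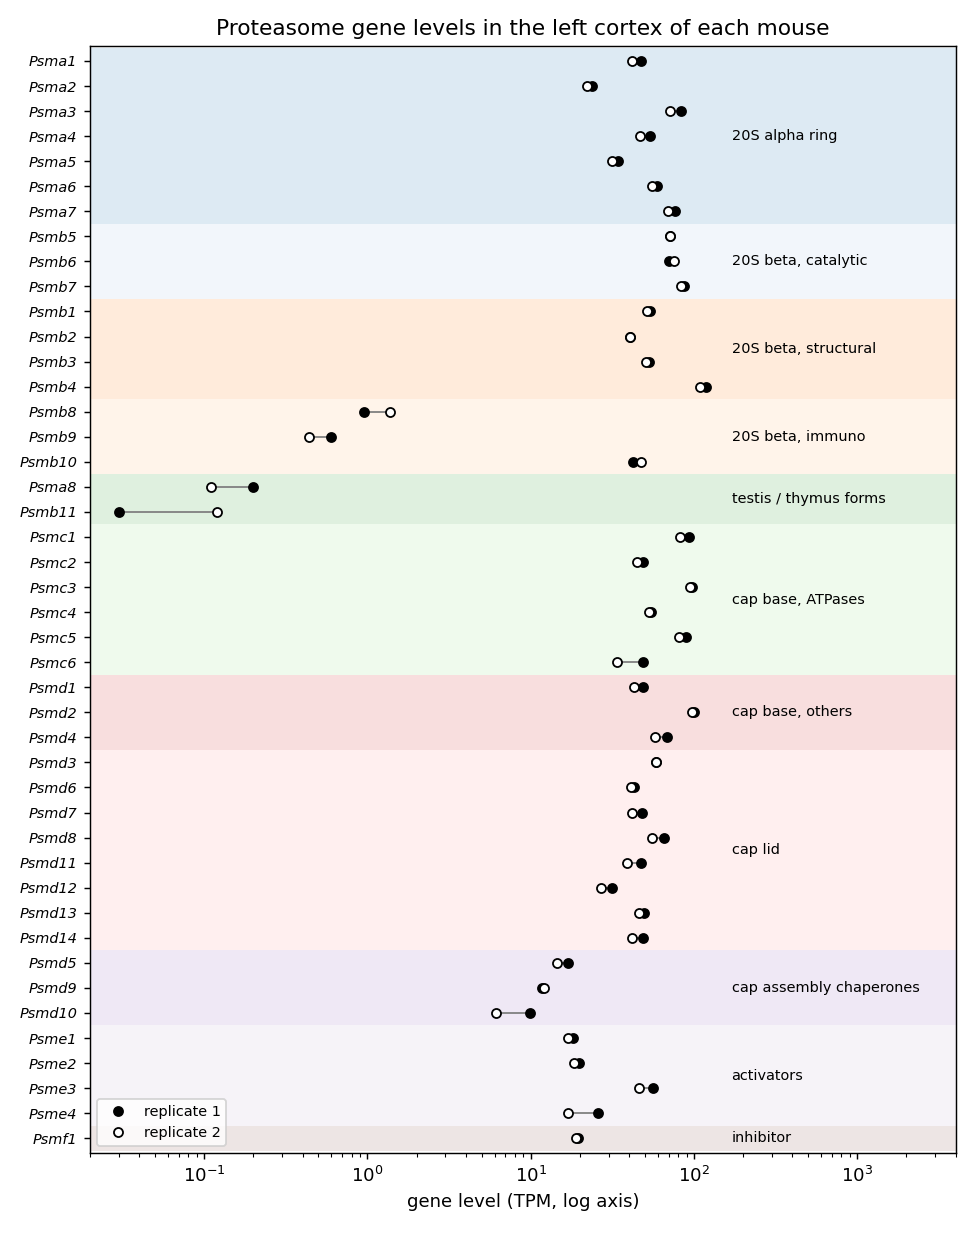
Level of each of the 44 proteasome genes in TPM on a log axis, with filled circles for replicate 1 and open circles for replicate 2, and shading by role in the complex. Constitutive core genes and cap subunit genes lie from 22.05 TPM upward, whereas Psmb8, Psmb9, Psma8 and Psmb11 lie at or below 1.37 TPM.

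The 14 constitutive core genes had a median of 56.9 TPM in replicate 1 and 53.6 TPM in replicate 2. The 17 cap genes, without the assembly chaperones, had medians of 49.6 and 45.95 TPM. Cap over core was therefore 0.865 ± 0.0101 by TPM, while by expected count, which is not corrected for length, it was 1.38. Of these 31 genes, 29 lay within 2-fold of the core median in both mice, and the exceptions were Psma2 below it and Psmb4 above it. The 14 core genes themselves set that median, and no such share was counted over other genes. Over protein-coding models the core median was 51.5 and 50.6 TPM. There Psmb4, with 66.1 and 60.1 TPM, lay within 2-fold. Psmc6, with 23.3 and 18.7 TPM, did not, nor did Psmd13 in replicate 1, with 25.5 TPM.

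The 7 alpha subunit genes, which form the gated outer rings, had a median of 50.2 ± 5.25 TPM. Psma2 was the lowest, with 23.7 TPM in replicate 1 and 22.05 TPM in replicate 2. Psma3 was the highest, with 82.9 and 71.1 TPM, and Psma7 followed with 77.0 and 69.7 TPM. Their means, 77.0 ± 8.40 and 73.3 ± 5.11 TPM, lay closer to each other than the mice did, although Psma3 was above Psma7 within each mouse. Protein-coding transcript models alone gave Psma3 48.7 and 43.3 TPM and Psma7 67.5 and 61.6 TPM, which turned their order. The other alpha genes, Psma1, Psma4, Psma5 and Psma6, had means from 32.7 to 57.5 TPM.

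By gene TPM the 3 constitutive cutting subunits lay closest together among the groups of constitutive core and cap subunits. The other groups held 3 to 8 genes, and the highest over the lowest tends to grow with the number of genes. The other group of 3, the cap base genes that are not ATPases, spanned 2.06-fold in replicate 1 and 2.26-fold in replicate 2. Psmb5, which encodes the chymotrypsin-like beta 5 subunit, had 71.7 TPM in replicate 1 and 71.4 TPM in replicate 2. Psmb6, which encodes the caspase-like beta 1 subunit, had 70.6 and 75.7 TPM, and Psmb7, which encodes the trypsin-like beta 2 subunit, had 87.4 and 83.7 TPM. The highest of the 3 exceeded the lowest 1.24-fold in replicate 1 and 1.17-fold in replicate 2, and the order of Psmb5 and Psmb6 differed between the mice. In the second transcript table the 3 spanned 1.69-fold and 1.78-fold, against 1.67-fold and 1.73-fold for the cap base genes that are not ATPases. The non-cutting beta genes were more spread, from Psmb2 at 40.8 TPM in both mice, through Psmb3 at 52.8 and 50.8 TPM and Psmb1 at 54.1 and 51.9 TPM, to Psmb4 at 119 and 108 TPM. Counted over protein-coding models alone, the 4 spanned 1.75-fold and 1.56-fold in place of 2.92-fold and 2.66-fold.

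The 3 immunoproteasome genes did not share 1 level. Psmb8, the beta 5 form, had 0.95 TPM in replicate 1 and 1.37 TPM in replicate 2, from 18 and 35 counts. Psmb9, the beta 1 form, had 0.60 and 0.44 TPM, from 13 and 10 counts. Psmb10, the beta 2 form, had 42.6 and 47.5 TPM, from 493 and 743 counts, a level within the range of the constitutive core. As a share of its constitutive counterpart Psmb8 reached 1.62% ± 0.420 of Psmb5 and Psmb9 reached 0.716% ± 0.190 of Psmb6. Psmb10 reached 52.7% ± 5.69 of Psmb7, so that the 2 low genes and the high one stood apart in each mouse. The summed level of the 3 immunoproteasome genes was 0.203 ± 0.0152 of that of the 3 constitutive ones.

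The level of Psmb10 lay mostly on transcript models that encode no protein. Psmb10 lies on the minus strand of chr8:105935735-105938444 (mm10), and 77.6% of its TPM in replicate 1 and 79.2% in replicate 2 sat on models annotated as non-coding. The retained-intron model Psmb10-205, of 554 bases, took 43.6% and 45.7%, and the processed transcript Psmb10-203, of 426 bases, took 26.1% and 24.5%. The protein-coding model Psmb10-201, of 1311 bases, took 22.4% and 20.8%, or 9.54 and 9.89 TPM. By expected count, which carries no length correction, 56.2% and 59.2% of Psmb10 lay on non-coding models. The authors' second transcript table put 67.5% and 66.8% there and gave Psmb10-201 22.4 and 25.4 TPM.

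Over protein-coding models Psmb10 was 11.4% ± 0.616 of Psmb7, against 30.4% ± 3.41 by gene count. The 3 immunoproteasome genes then summed to 0.0471 of the 3 constitutive ones. Even so, Psmb10 at 9.54 and 9.89 TPM remained above Psmb8 at 0.49 and 0.52 TPM and Psmb9 at 0.12 and 0.09 TPM over their coding models. Gm16156, an antisense gene that overlaps Psmb10 on the opposite strand, held 1 and 2 counts. Psmb9 overlaps Tap1 on the opposite strand, which held 36 and 58 counts, and 71.2% and 75.6% of the Psmb9 level lay on models of nonsense-mediated decay. The decay model Psmb9-207 rested on 7.34 and 7.85 expected counts. In the second transcript table it took 59.4% in replicate 1 and 6.75% in replicate 2, and coding models of Psmb9 had 0.34 and 1.09 TPM. The sources used here name no strand setting for the counting, and any exchange of reads between these overlapping genes was not tested.

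No listed gene of antigen presentation or of the interferon response reached the median of the constitutive core. The 7 peptide presentation genes had a median of 7.53 ± 0.806 TPM, from Tap1, a subunit of the peptide transporter, at 0.69 and 0.81 TPM to B2m, the light chain of class I molecules, at 48.35 and 43.7 TPM. Of 9 interferon response genes, 4 had at least 1 TPM in both mice, and their median was 0.81 ± 0.0141 TPM.

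Promoter windows of 5 of the 6 cutting-subunit genes are shown, because forms that fill the same position of the core differed widely in level. Psmb7 is absent because no window matched it, so Psmb10 stands without its constitutive counterpart. RefSeq windows of 250 bases before to 50 after the gene start (GRCm38.p6) matched 37 of the 44 genes, in 40 windows. Both strands were searched for TGACNNNGC, the letters of an antioxidant response element, to which Nfe2l1 and Nfe2l2 bind, and for GAAA, any 2 bases and GAAA again, the letters of an interferon-stimulated element. The 150 bases before each start are printed 5′ to 3′ on the gene's strand, with a match in capitals. The RefSeq starts of Psmb5, Psmb8, Psmb9 and Psmb10 lay downstream of the GENCODE gene starts, and that of Psmb6 lay upstream. The windows of Psmb8 and Psmb9 lay wholly inside the GENCODE genes and held no base upstream of those gene starts.
Psmb5, chr14:54617996-54618145, minus strand: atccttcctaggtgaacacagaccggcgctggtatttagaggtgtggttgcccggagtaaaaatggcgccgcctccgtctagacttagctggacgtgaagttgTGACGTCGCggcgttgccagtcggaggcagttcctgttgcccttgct
Psmb6, chr11:70525207-70525356, plus strand: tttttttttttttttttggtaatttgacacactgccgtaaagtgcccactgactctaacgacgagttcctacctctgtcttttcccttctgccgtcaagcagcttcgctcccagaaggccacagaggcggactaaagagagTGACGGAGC
Psmb8, chr17:34198045-34198194, plus strand: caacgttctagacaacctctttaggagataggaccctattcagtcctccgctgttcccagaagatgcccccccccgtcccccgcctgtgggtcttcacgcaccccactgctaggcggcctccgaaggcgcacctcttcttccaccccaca
Psmb9, chr17:34187331-34187480, minus strand: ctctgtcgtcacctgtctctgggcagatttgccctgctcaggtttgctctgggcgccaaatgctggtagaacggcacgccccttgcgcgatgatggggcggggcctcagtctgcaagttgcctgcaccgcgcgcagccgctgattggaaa
Psmb10, chr8:105938393-105938542, minus strand: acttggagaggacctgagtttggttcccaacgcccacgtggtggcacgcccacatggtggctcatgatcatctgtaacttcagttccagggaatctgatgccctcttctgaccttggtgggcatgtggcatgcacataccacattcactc

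TGACNNNGC stood 47 bases before the start of Psmb5 and 9 bases before that of Psmb6, and in 6 of the 40 proteasome windows in all (15%), against 12.4% of 32851 windows of all genes. The other windows with this motif belonged to Psmc6, Psmd9, Psmd12 and Psme4. The interferon-stimulated letters stood in 4 of the 40 windows (10%), those of Psmb3, Psmd4, Psmd9 and Psme1, against 3.44% of all windows. The windows of Psmb8, Psmb9 and Psmb10 held neither string, which says only that these letters are not in these 300 bases. For Psmb8 and Psmb9 the region upstream of the GENCODE gene start was outside the window. A match is a description of the letters and not of a bound site.

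Psma8, which encodes an alpha 4 form of the testis, held 6 counts in replicate 1 and 2 in replicate 2, or 0.20 and 0.11 TPM. Its ubiquitous counterpart Psma7 exceeded it in both mice, with Psma8 at 0.209% ± 0.0722 of Psma7. Psmb11, the beta 5 form of the thymus cortex, held 2 and 5 counts, or 0.03 and 0.12 TPM. At these counts no difference between the mice was detectable.

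In the base of the cap, the 6 ATPases that unfold the substrate had a median of 69.3 ± 3.39 TPM. Psmc3 was the highest with 97.5 TPM in replicate 1 and 94.7 TPM in replicate 2, above Psmc1 with 92.9 and 82.15 TPM and Psmc5 with 89.0 and 80.5 TPM. Over protein-coding models Psmc5, with 87.0 and 78.7 TPM, was above Psmc3, with 74.1 and 70.1 TPM. Psmc4, with 54.4 and 53.4 TPM, and Psmc2, with 48.8 and 44.9 TPM, were lower. Psmc6 had 48.96 and 33.8 TPM, from 1222 and 1254 counts. This gap between the mice was the widest among the ATPases by TPM, but not by the log2 count ratios described below. By those ratios Psmc3, at 0.22, differed more between the mice than Psmc6, at -0.16. The coding model of Psmc6, Psmc6-201, had 23.3 and 18.7 TPM, and non-coding models took 46.1% and 41.9% of the Psmc6 level.

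The scaffold gene Psmd2 had 100.3 TPM in replicate 1 and 97.15 TPM in replicate 2, next to Psmc3 at the top of the cap. In the second table Psmc3, with 172 and 188 TPM, was above Psmd2, with 130 and 137 TPM. Psmd1, the other large scaffold of the base, had 48.7 and 42.9 TPM, and the ubiquitin receptor Psmd4 had 68.45 and 58.1 TPM. Psmd2 also had the most reads of all proteasome genes, with 4878 and 6289 counts. Adrm1, a ubiquitin receptor of the cap named outside the Psm series, averaged 41.5 TPM, below Psmd4.

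The 8 genes of the lid, the part of the cap that removes ubiquitin, had a median of 45.2 ± 4.65 TPM. Psmd14, the deubiquitinating enzyme of the lid, had 48.7 and 41.9 TPM, and its partner Psmd7 had 48.25 and 41.9 TPM, levels that lay closer to each other than the mice did. Psmd8 was the highest by mean, with 65.4 and 55.2 TPM, and overlapped with Psmd3 at 58.5 and 58.9 TPM. Psmd12 was the lowest, with 31.5 and 26.9 TPM, and Psmd6, Psmd11 and Psmd13 lay between at means from 41.9 to 47.8 TPM. Psmd13 drew on a decay model, Psmd13-211, for 33.5% and 26.5% of its level, and its coding models gave 25.5 and 28.3 TPM. Sirt3, which overlaps Psmd13 on the opposite strand, held 863 and 1065 counts.

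The chaperones that build the base and then leave it were lower than the subunits they assemble. Psmd5 had 16.8 TPM in replicate 1 and 14.5 TPM in replicate 2, and Psmd9 had 11.7 and 12 TPM. Psmd10, known as gankyrin, had 9.88 and 6.12 TPM. No chaperone reached the lowest cap subunit in either mouse. Of the chaperones of the core, Pomp had 80.8 and 79.0 TPM, a level among those of the core subunits, whereas the lowest of the 5 genes, Psmg1, averaged 6.72 TPM.

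The activators split by type. Psme3, which encodes the nuclear activator PA28 gamma, had 56.3 TPM in replicate 1 and 46.15 TPM in replicate 2, and exceeded Psme1 2.92 ± 0.286-fold by TPM and 6.79-fold by count. Psme1 and Psme2, whose products form the interferon-inducible ring PA28 alpha-beta, had 18.0 and 17.0 TPM and 19.8 and 18.4 TPM. Psme1 over Psme2 was 0.916 ± 0.00926 by gene TPM, but 1.24 over protein-coding models, 1.58 by count and 2.02 in the second table, so the order of these partners depended on the measure. Emc9, which overlaps Psme1 on the opposite strand, held 256 and 319 counts. Psme4, which encodes PA200, had 25.96 and 16.9 TPM, or 0.414 ± 0.0667 of Psme3 by TPM and 0.903 of it by count. Psmf1, the inhibitor PI31, had 19.4 and 18.9 TPM, close to Psme1 and Psme2.

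**Figure D2:**
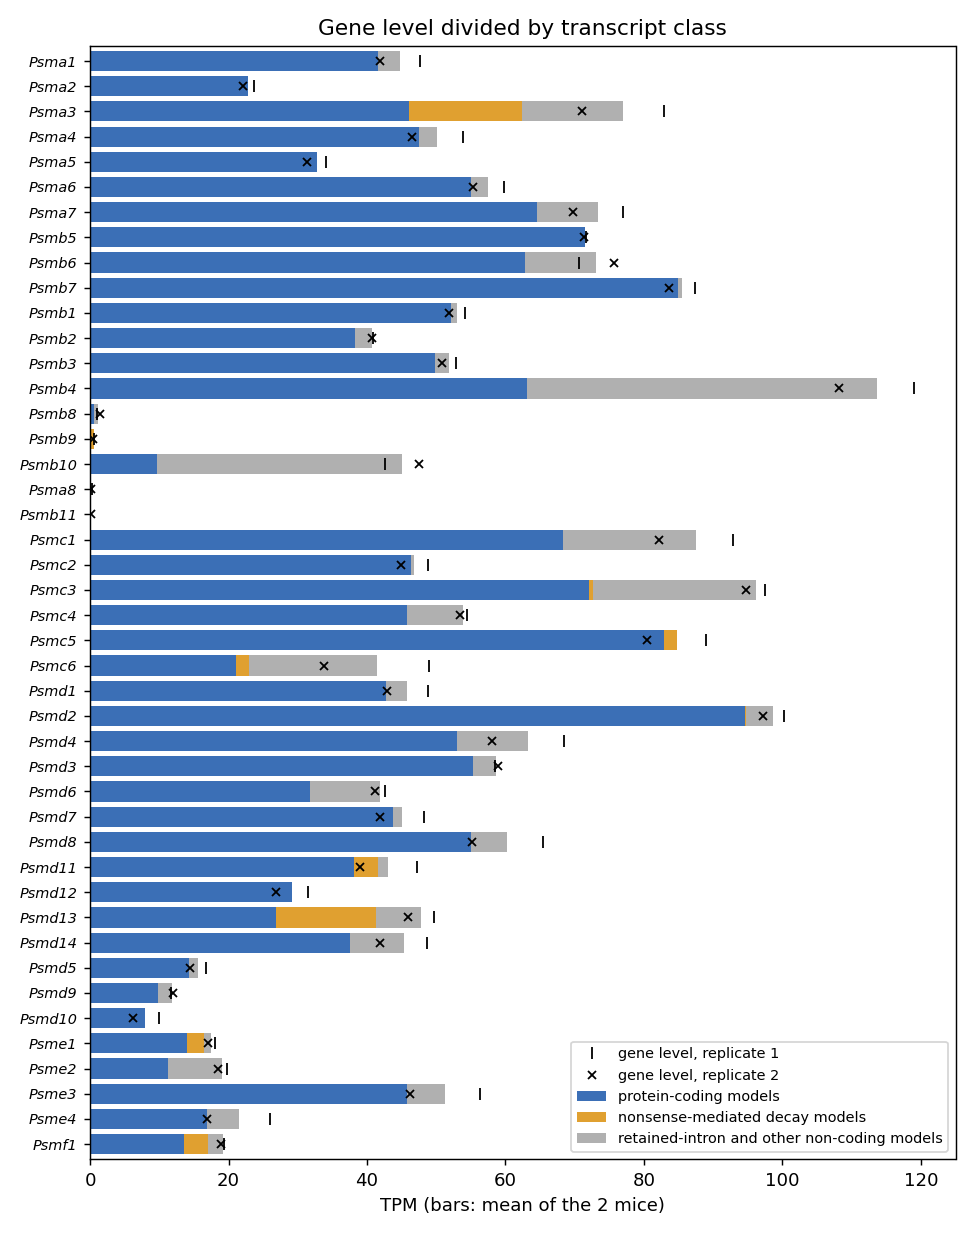
Level of each gene in TPM divided by annotated transcript class, with bars for the mean of the 2 mice, vertical ticks for replicate 1 and crosses for replicate 2. Psmb10 is the gene with the largest non-coding part relative to its level, with 77.6% and 79.2%.

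Non-coding models, which are mostly retained introns and processed transcripts, took part of the level of 34 of the 40 expressed proteasome genes. Psmb10 was the 1 gene of 34 with at least 50% there in both mice (2.94%), against 6.30% of 9285 nuclear protein-coding genes. The next shares were those of Psme2 with 48.6% in replicate 1 and 33.6% in replicate 2, Psmc6 with 46.1% and 41.9%, and Psmb4 with 44.5% and 44.4%. By expected count these shares were smaller, at 26.1% and 9.25% for Psme2, 20.5% and 18.1% for Psmc6, and 24.7% and 26.0% for Psmb4. In the second table Psmc4 also had at least 50% on non-coding models in both mice, with 59.3% and 50.1%. Psmc6 had 74.2% and 44.2% there, against 67.5% and 66.8% for Psmb10. Over all 44 genes 7.09% and 5.64% of expected counts lay on non-coding models, against 5.69% and 4.55% for all nuclear protein-coding genes. Psma2, Psma5, Psmb5, Psmc5, Psmd10 and Psmd12 had no level on such models in either mouse.

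The non-coding share was lower in replicate 2 for 31 of 34 proteasome genes (91.2%), against 71.6% of the 9285 protein-coding genes. Its median over the 34 was 12.8% and 8.22%, and over the protein-coding genes it was 15.2% and 11.6%. Psmd4 differed by the most of the cap genes, with 24.2% and 7.01%. The exceptions, higher in replicate 2, were Psmb10, Psmc3 with 22.9% and 26.0%, and Psmc4 with 12.8% and 17.6%. By expected count the share was lower in replicate 2 for 30 of 34 proteasome genes (88.2%) and 74.5% of protein-coding genes, and in the second table for 29 of 33 (87.9%) and 70.1%. By expected count Psmb4 joined the exceptions. In the second table the exceptions were Psmb4, Psmc3, Psmd1 and Psmf1, while Psmb10 and Psmc4 were lower in replicate 2. The cause of this difference between the libraries was not tested.

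**Figure D3:**
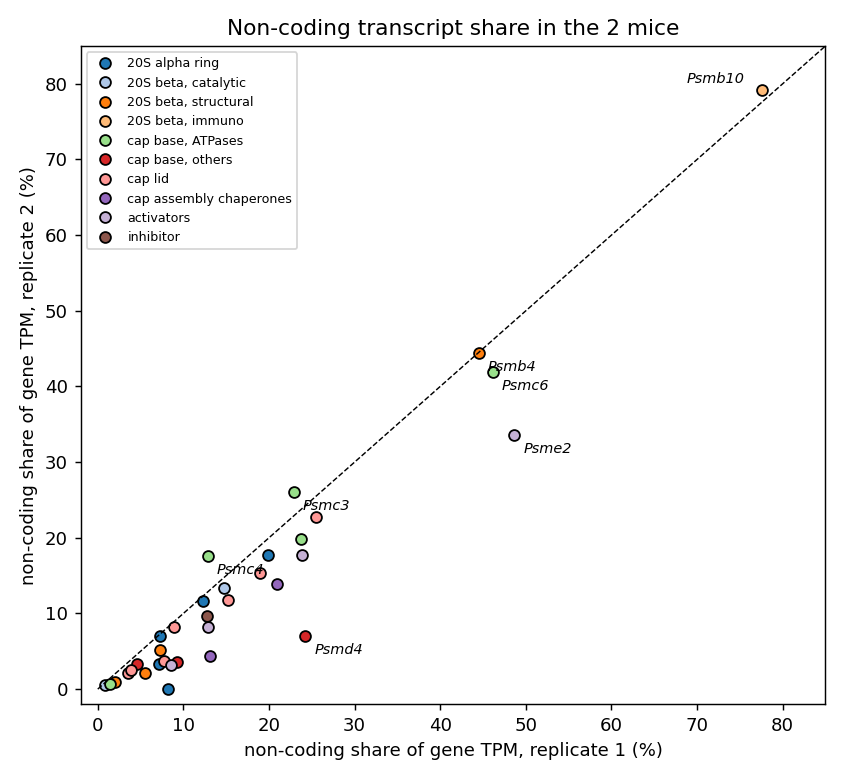
Share of each gene's TPM on non-coding transcript models in replicate 1 and replicate 2, in percent, for the 34 expressed proteasome genes with such a share, with a dashed line of equal shares and colours by role. All but Psmb10, Psmc3 and Psmc4 lie below the line, and Psmb10 stands apart at 77.6% and 79.2%.

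A single transcript took at least 50% of the level in both mice for 33 of the 40 expressed proteasome genes (82.5%), against 67.4% of 12754 expressed protein-coding genes. The leading transcript was the same in both mice for 38 of 40, with Psmd5 and Psmd9 as exceptions, and was protein-coding for all but Psmb10. By expected count, however, the coding Psmb10-201 led Psmb10, with 216 and 303 counts against 158 and 250 for Psmb10-205. The second table named the same leading transcript for 31 of 40. Like the 38 of 40 and the coding leaders above, this was not counted over all genes. These counts are therefore not a trait particular to proteasome genes. By the mean of the mice the second table also put Psmb10-201 first. It put a retained-intron model first for Psmc6 and decay models first for Psma3, Psmd13 and Psme1. Psma3 showed the widest division, with its leading model Psma3-204 at 25% and 26.6% and none of its models at 50%, while the second table gave the decay model Psma3-201 56.8% and 45.5%.

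The mice were compared by the log2 ratio of counts, replicate 2 over replicate 1, scaled with TMM library sizes, which assume that most genes are unchanged. 7SL RNA took 30.1% of all TPM in replicate 2 and 24.3% in replicate 1, and TPM was lower in replicate 2 for 36 of the 40 counted genes, while most count ratios were above 0. Of the 40 proteasome genes whose counts averaged 100 or more, 5 were 1.2-fold or more apart (12.5%), against 19.5% of 12615 genes. None was 2-fold apart, against 0.713% of all genes, 0.277% higher and 0.436% lower in replicate 2. The median ratio was 0.12, with quartiles of 0.05 and 0.21, and that of all genes was 0.04.

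**Figure D4:**
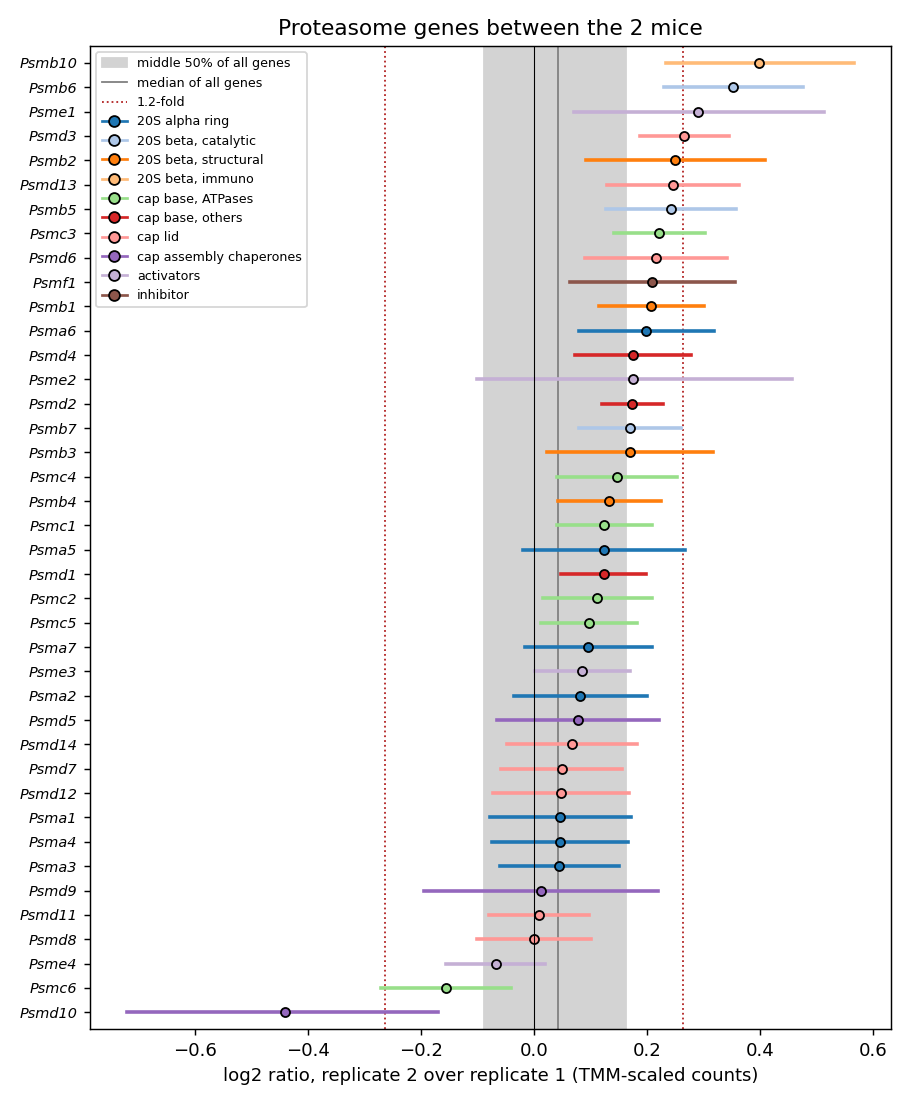
Log2 ratio of replicate 2 over replicate 1, from TMM-scaled counts, for the 40 proteasome genes whose counts averaged 100 or more, with lines for exact 95% counting intervals, colours by role, grey for the quartiles of all genes and dotted lines at 1.2-fold. Psmb10, Psmb6, Psme1 and Psmd3 lie past the upper line and Psmd10 past the lower one.

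Psmb10 had the highest ratio, at 0.40 with a 95% counting interval of 0.23 to 0.57 (493 and 743 counts). Psmb6 followed at 0.35 with 0.23 to 0.48, Psme1 at 0.29 with 0.07 to 0.51, and Psmd3 at 0.27 with 0.19 to 0.35. These 4 genes were 10% of the 40, and 11.1% of all genes were 1.2-fold higher in replicate 2. Psmd10 was lower in replicate 2, at -0.44 with -0.72 to -0.17 (243 and 204 counts). It was 2.5% of the 40, and 8.41% of all genes were 1.2-fold lower. In the second transcript table its ratio was -0.15, within 1.2-fold, while the 4 higher genes stayed past 1.2-fold there. Psmb5 at 0.29, Psme2 at 0.29 and Psma6 at 0.28 also passed 1.2-fold in that table. Psmb10 and Psmd10 belong to different roles, and no role held more than 1 of the 5 genes. This did not hold in the second table, where Psmb5 joined Psmb6 and Psme2 joined Psme1.

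Ratios below 0 were found for 3 of the 40 proteasome genes (7.5%), namely Psmc6 at -0.16, Psme4 at -0.07 and Psmd10, against 41.1% of all genes. With library sizes taken from the spike-ins none of the 40 ratios was above 0, the median of the proteasome genes was -0.34 and that of all genes -0.42. This scaling moved all genes down alike, so the sign of a ratio depended on the scaling. The proteasome median lay above that of all genes under both, an order that such a common shift cannot change. Red blood cell markers were lower in replicate 2, with a median ratio of -0.67 over 4 genes, and oligodendrocyte markers had a median of -0.12. Their part in the proteasome ratios was not tested.

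Over the lists of other pathway genes, 37 genes had counts that averaged 100 or more. Of these, 3 (8.11%) were 1.2-fold or more apart, against 19.5% of all genes, and their median ratio was 0.10, against 0.04 for all genes. The 6 ubiquitin supply genes had a median of 277 ± 4.58 TPM, with Ubb, a polyubiquitin gene, the highest at a mean of 749 TPM. The 6 genes that deliver substrates had a median of 70.5 ± 2.68 TPM, above the medians of core and cap. Usp14, a deubiquitinating enzyme bound to the cap, averaged 66.5 TPM. Nfe2l1, the transcription factor known to raise proteasome genes when the enzyme is blocked, had 130 and 114 TPM, whereas the related Nfe2l2 averaged 5.41 TPM.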

How the data were processed

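Total RNA-seq of the left cerebral cortex of 2 mice, 1 library each in 1 group, was analysed. The build (mm10) is per the labels, and the annotation (GENCODE M21) per notes deposited with the files. The sources used here name no aligner, strand setting or software of the authors. Per the file headers, the authors deposited an expected count and a TPM for each gene and transcript, the percent of its gene that each transcript takes, and a second transcript table with an estimated count and TPM. The deposited FPKM was not used. TPM includes 7SL RNA and spike-ins, so levels were compared within a library. Reads of hybrid mice were quantified on the reference, and loss of reads from the CAST/EiJ allele was not tested.

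Members were found by symbol. Members, lists, motifs and rules of size were chosen with earlier results of these data known. Every member is named, list genes are named by role, and some list genes are counted but not reported here by name. Alternatives and their effect stand in the closing section. Ratios used expected counts rounded to whole numbers, TMM sizes (edgeR 4.0.16 in R 4.3.3), a prior count of 2 and a mean count of at least 100. Intervals are 95% exact Clopper-Pearson intervals that cover counting error only. Of the 44 members, 12 had expected counts that were not whole, as happens where a read fits several genes. With 1 library a mouse no test was run. The ratio step was tested on simulated data. Python 3.11.15, numpy 2.4.6, pandas 2.3.3, scipy 1.17.1, matplotlib 3.10.9 and DESeq2 1.42.0 (size factors only) were used.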

Additional observations from a re-analysis of the deposited data

How the results depend on the processing

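No paired analysis was possible because the series has 1 group. The second transcript table gave medians of 93.5 TPM for the core, 80.98 for the cap and 37.2 for the activators, and 0.226 for immunoproteasome over constitutive catalytic genes. TPM rescaled to nuclear protein-coding genes gave 124.7 for the core, 2.65 for the immunoproteasome, 107.8 for the cap and 45.5 for the activators. Protein-coding transcripts only, an alternative chosen after seeing the data like the count-based and second-table non-coding shares, gave 51.0 for the core, 0.505 for the immunoproteasome, 15.4 for the activators, 0.896 for cap over core and 0.0471 for immunoproteasome over constitutive. Expected counts gave 1.38 for cap over core and 0.149 for immunoproteasome over constitutive. Members 1.2-fold apart numbered 29 with spike-in sizes and 9 with no minimum count, where low counts limit the ratios. The share of all genes past 1.2-fold was not counted under these settings, so neither count is particular to the proteasome genes. Spike-in sizes moved the median of all genes from 0.04 to -0.42, itself past 1.2-fold, and left no member above 0. Of the 5 ratios past 1.2-fold, the 4 positive ones reversed by this shift, to -0.11 for Psmb6, -0.067 for Psmb10, -0.20 for Psmd3 and -0.17 for Psme1. The second table moved Psmd10 from -0.44 to -0.15.

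With 1 mouse left out, which shows only the value of the other mouse, the medians ranged from 53.6 to 56.9 TPM for the core, 0.95 to 1.37 for the immunoproteasome, 45.95 to 49.6 for the cap and 17.7 to 22.9 for the activators. Cap over core ranged from 0.858 to 0.872, immunoproteasome over constitutive from 0.192 to 0.214, members of at least 1 TPM from 40 to 41 and members with a leading transcript from 33 to 36. Psmb8, Psmb9, Psma8 and Psmb11 rest on at most 35 counts a library.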

Other observations

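Genes and pseudogenes named after proteasome members but outside the rule were near 0. Psme2b had 0.26 TPM in replicate 1 and 0.40 TPM in replicate 2, from 4 and 7 counts. Psmb5-ps had 0.00 and 0.06 TPM and Psmb7-ps2 had 0.01 and 0.11 TPM, while Psmb6-ps and Psmb6-ps2 were listed at 0 in both libraries. The 44 members lay on 16 chromosomes, with 8 on chromosome 11 and 6 each on chromosomes 2 and 14.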
